A study of Homo sapiens with 9 samples.

Results

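The genes described are 6 kallikrein-related peptidases, KLK5, KLK6, KLK7, KLK8, KLK10 and KLK11, taken by their GENCODE v29 symbols from the 58233 genes counted in each library. Kallikrein-related peptidases are secreted serine proteases that are made as inactive proforms and switched on when another protease removes the propeptide. In stratified epithelium they form an activation cascade: KLK5 can activate itself and then KLK7 and other members, and the active enzymes cut the desmosomal proteins that hold surface cells together. The inhibitor LEKTI, the product of SPINK5, restrains some of these enzymes, and several members also cleave protease-activated receptors.

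RNA was sequenced from UPCI-SCC-040, an established cell line from an oral squamous cell carcinoma of the tongue. The 9 libraries form 3 groups of 3: controls that received no TGF-β1, whose titles carry 0 h, a 48 h group and a 72 h group, both treated at a dose of 5 ng/ml. TGF-β1 is a cytokine that signals through SMAD transcription factors. Replicates 1, 2 and 3 of every group are passages 12, 13 and 8 of the line. The growth medium contained 10% fetal bovine serum, but TGF-β1 was given in medium lacking serum and antibiotics, and the labels do not say that controls were deprived of serum. In any comparison with controls, the cytokine, the lack of serum and the time elapsed therefore cannot be told apart. The 3 libraries of a group are thus different passages of 1 line, and a p-value here covers the spread between these passages. The 48 h and 72 h comparisons also use the same 3 controls.

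Libraries held 12544690 to 20438727 counts. All 8 squamous keratinocyte markers, among them KRT5, KRT14 and TP63, were counted in every library, with a summed level of 10542 to 19021 CPM (counts scaled to library size) in controls, 23621 to 29677 CPM at 48 h and 15238 to 24614 CPM at 72 h. The 6 fibroblast markers summed to 10.2 to 12.5 CPM in controls, 36.1 to 89.8 CPM at 48 h and 20.2 to 111 CPM at 72 h. Most of this was COL1A1, at 9.61 to 89.3 CPM. COL1A2 had 0.181 to 20.8 CPM and was counted in every library, and PDGFRB reached 0.803 CPM with 3 libraries at 0. DCN, LUM and THY1 were at 0 in 8, 7 and 8 of 9 libraries. The part of these markers in the results was not tested. Leukocyte markers summed to at most 1.07 CPM and endothelial markers to at most 2.66 CPM in any library. Replicate 3 at 72 h stood apart from the other treated libraries on the first principal component, at 84.4 against 9.1 to 37.8, with controls at -75.2 to -63.7. SMAD7, PMEPA1 and CDKN1A, which are commonly induced by TGF-β, were all higher at both times, with log2 fold changes of 0.91 to 2.14.

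The 6 genes lie in 1 cluster on chromosome 19 (GRCh38), which holds all 15 human kallikrein genes between 50819148 and 51084245, and all 6 are on the minus strand. KLK5 (ENSG00000167754) spans 50943303 to 50953093, KLK6 (ENSG00000167755) 50958631 to 50969673, and KLK7 (ENSG00000169035) 50976482 to 50984099. KLK8 (ENSG00000129455) spans 50996007 to 51002711, KLK10 (ENSG00000129451) 51012739 to 51020175, and KLK11 (ENSG00000167757) 51022216 to 51028039. RefSeq windows reaching from 250 bases before to 50 after an annotated start (GRCh38.p14) were at hand for 5 of the 6 genes, in 9 windows, some of them overlapping. The letters CAGAC, a core of SMAD binding elements, were searched on both strands, where the other strand reads GTCTG. So was the E-box CACCTG, which SNAI and ZEB factors bind and which reads CAGGTG on the other strand. The remaining motifs were the GC box GGGCGG, whose reverse complement is CCGCCC, the AP-1 site TGANTCA, and the TATA box with the letters TATAAA. The 250 bases before 1 start are given for KLK5, the most abundant member, KLK6, with the largest difference at 48 h, KLK10, the second most abundant, and KLK11, which passed no test, each read 5′ to 3′ on the minus strand with matches to these motifs in capitals.
KLK5 (chr19:50953039-50953288): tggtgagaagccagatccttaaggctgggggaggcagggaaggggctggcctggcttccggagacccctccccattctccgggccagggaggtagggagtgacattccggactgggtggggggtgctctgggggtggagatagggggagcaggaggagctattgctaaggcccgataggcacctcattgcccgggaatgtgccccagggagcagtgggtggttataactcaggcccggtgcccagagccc
KLK6 (chr19:50969592-50969841): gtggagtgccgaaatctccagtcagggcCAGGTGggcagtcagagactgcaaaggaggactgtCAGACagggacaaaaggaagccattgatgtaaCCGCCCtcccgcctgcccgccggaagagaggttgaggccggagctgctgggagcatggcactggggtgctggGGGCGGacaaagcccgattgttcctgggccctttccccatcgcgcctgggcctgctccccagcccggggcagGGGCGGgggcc
KLK10 (chr19:51019862-51020111): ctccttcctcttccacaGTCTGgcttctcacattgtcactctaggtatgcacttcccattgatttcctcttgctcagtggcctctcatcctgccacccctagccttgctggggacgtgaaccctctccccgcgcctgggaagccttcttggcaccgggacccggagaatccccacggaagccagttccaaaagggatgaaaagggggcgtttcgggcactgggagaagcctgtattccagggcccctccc
KLK11 (chr19:51026617-51026866): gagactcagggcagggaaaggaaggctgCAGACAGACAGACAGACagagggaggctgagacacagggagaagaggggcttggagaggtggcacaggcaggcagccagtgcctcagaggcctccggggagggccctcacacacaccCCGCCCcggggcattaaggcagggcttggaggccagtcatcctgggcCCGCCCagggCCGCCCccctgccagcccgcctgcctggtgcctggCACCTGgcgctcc

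The stretch before KLK5 holds none of these motifs; its window has 1 CAGAC match, at 38 bases after the start. The KLK6 window has CACCTG at -222, CAGAC at -187 and GGGCGG at -155, -83 and -11 relative to the start. The KLK10 stretch holds a single CAGAC match, at -233. A second KLK10 window, at another start, has CAGAC only after that start, at 19 and 44. In the KLK11 stretch a CAGAC repeat gives 4 overlapping matches, at -222, -218, -214 and -210, beside CACCTG at -13 and GGGCGG at -105, -58 and -48. The other KLK11 window has CAGAC at -193 and -134, CACCTG at 30 after the start and no GGGCGG, so the matches depend on the start chosen. CAGAC occurred in 7 of the 9 windows, GGGCGG in 5 and CACCTG in 4, against 45.3%, 44.9% and 20.6% of all 34943 RefSeq windows of that length. TGANTCA and TATAAA occurred in 0 of the 9, against 7.72% and 11.6% of all windows. A match describes the letters of the window and is not by itself a binding site, and a missing match says only that the letters are not in these windows.

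KLK5 dominated the family in every library. By FPKM, which divides CPM by exon length in kilobases and can be set between genes, controls averaged 302 ± 61.6 FPKM for KLK5, 20.6 ± 5.23 for KLK10 and 3.35 ± 1.25 for KLK8 (SD, n = 3 each, as in all group values here). KLK6, KLK7 and KLK11 followed at 0.962 ± 0.211, 0.623 ± 0.140 and 0.603 ± 0.516 FPKM, and the libraries of each of these 3 overlapped those of the others, so their order is not resolved. At 48 h the means were 178 ± 15.5 FPKM for KLK5, 10.2 ± 4.40 for KLK10, 0.811 ± 0.251 for KLK8, 0.451 ± 0.138 for KLK11, 0.366 ± 0.0375 for KLK7 and 0.129 ± 0.0553 for KLK6. KLK8 overlapped KLK11 there and KLK11 overlapped KLK7, whereas every KLK6 library lay below every library of the other 5. At 72 h KLK5 averaged 124 ± 8.58 FPKM, KLK10 6.72 ± 1.00, KLK8 0.783 ± 0.0524, KLK11 0.327 ± 0.130, KLK6 0.146 ± 0.0722 and KLK7 0.121 ± 0.0296. KLK5, KLK10 and KLK8 kept separate ranks at that time, and KLK6 overlapped both KLK7 and KLK11. With the longest transcript in place of all exons as the length, KLK11 moved above KLK6 and KLK7 in controls.

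KLK5 took 83.6% to 91.9% of all kallikrein counts in a library and KLK10 6.91% to 14.5%. The other 9 family genes were near 0 and did not pass the filter on low counts. Over all 9 libraries KLK14 had 33 counts, KLK1 21, KLK12 16, KLK9 9, KLK4 5, KLK3, which encodes prostate-specific antigen, 3, KLK2 2, and KLK13 and KLK15 1 each. The 9 counts of KLK9 were all in controls; a count of 0 in a treated library allows up to 3 counts.

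Most members were lower after TGF-β1, to different extents. At 48 h, 4 of the 6 passed the test as lower and 0 as higher, beside 16.0% and 14.9% of the 15440 genes tested, 31.0% in all. At 72 h, 5 of 6 passed as lower and 0 as higher, beside 19.4% and 20.4% of genes tested, 39.8% in all. The libraries of 5 members did not overlap and were lower than controls at each time, KLK11 being the exception, beside 28.1% of tested genes at 48 h and 27.7% at 72 h. The median log2 fold change of the 6 was -0.88 at 48 h and -1.86 at 72 h, where that of all genes tested was 0 and 0.03. Lower RNA per cell and fewer cells expressing a gene cannot be told apart in bulk RNA. KLK6 reached the filter's level of 0.591 CPM in the 3 controls and in 0 treated libraries, so it entered the test through the group in which it was high. KLK7 reached it in all 3 controls, 3 libraries at 48 h and 0 at 72 h, KLK11 in 3, 3 and 2, and KLK5, KLK8 and KLK10 in all 9 libraries.

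**Figure D1:**
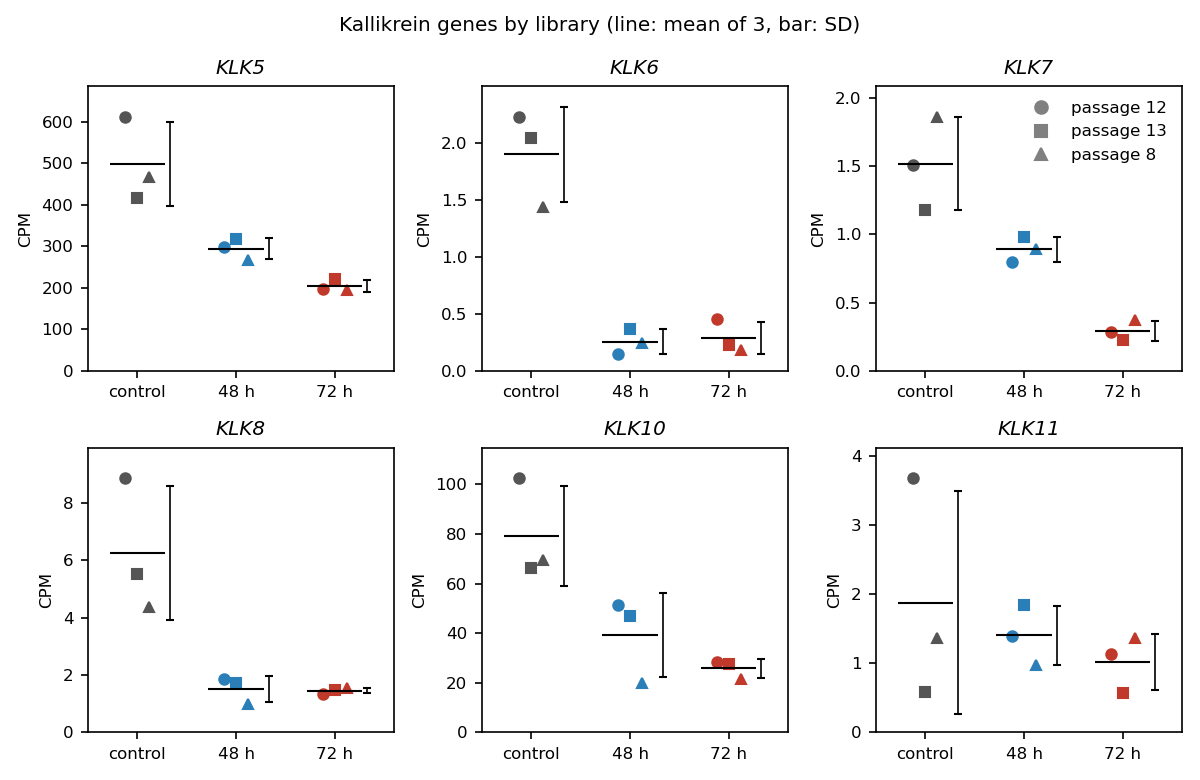
Level in CPM (y axis, linear from 0, a scale of its own for each gene) of the 6 kallikrein genes in controls, at 48 h and at 72 h of TGF-β1 (x axis). Points are libraries, shaped by passage, the line is the mean of 3 and the bar the SD; KLK5 has 195 to 221 CPM at 72 h and 416 to 612 CPM in controls, while the groups of KLK11 overlap.

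KLK5, a trypsin-like protease that starts the cascade, had 612, 416 and 467 CPM in control replicates 1, 2 and 3, 297, 318 and 267 CPM at 48 h, and 197, 221 and 195 CPM at 72 h. All 6 treated libraries lay below all controls, and all 72 h libraries below all 48 h libraries. It fell by 0.76 ± 0.16 on the log2 scale at 48 h (approximate SE; adjusted p = 0.00825, edgeR quasi-likelihood test with Benjamini-Hochberg adjustment over all genes, as for every adjusted p here) and by 1.29 ± 0.17 at 72 h (adjusted p = 0.00071), which is 1.70-fold and 2.44-fold lower. Within passages 12, 13 and 8 the log2 ratio to the control of the same passage was -1.04, -0.39 and -0.81 at 48 h and -1.64, -0.92 and -1.26 at 72 h. KLK5 rests on 3163 to 10157 counts a library, far more than any other member.

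KLK7, the chymotrypsin-like protease of the stratum corneum that KLK5 can activate, was rare, at 1.51, 1.18 and 1.86 CPM in control replicates 1, 2 and 3. It had 0.798, 0.980 and 0.897 CPM at 48 h and 0.282, 0.228 and 0.371 CPM at 72 h. The 3 groups did not overlap, with controls highest and 72 h lowest, although a 72 h library held only 4 to 6 counts. The log2 fold change at 48 h was -0.76 ± 0.31 and missed the threshold (adjusted p = 0.0878), with ratios of -0.92, -0.27 and -1.06 within passages 12, 13 and 8. At 72 h KLK7 fell by 2.34 ± 0.35 (adjusted p = 0.00118), or 5.06-fold, and the ratios within these passages were -2.42, -2.37 and -2.33. With 4 to 6 counts in a 72 h library, the closeness of these ratios says little about their spread.

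KLK8, a trypsin-like protease also known as neuropsin for its role in the hippocampus, had 8.86, 5.53 and 4.37 CPM in control replicates 1, 2 and 3. It had 1.85, 1.72 and 0.978 CPM at 48 h and 1.35, 1.48 and 1.54 CPM at 72 h. Every treated library was below every control, and the 48 h and 72 h libraries overlapped. KLK8 fell by 2.02 ± 0.33 at 48 h (adjusted p = 0.0027) and by 2.10 ± 0.33 at 72 h (adjusted p = 0.00157), which is 4.07-fold and 4.28-fold lower. Within passages 12, 13 and 8 the log2 ratio was -2.26, -1.69 and -2.16 at 48 h and -2.71, -1.90 and -1.50 at 72 h.

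The KLK8 value has a limit of annotation. A second protein-coding gene model on the same strand, AC011473.4 (ENSG00000269741), runs over KLK8 and KLK9 and shares 747 of the 1865 exon bases of KLK8, so reads from that stretch could be assigned to either or dropped. AC011473.4 had 39, 26 and 29 counts in control replicates 1, 2 and 3, 2, 7 and 2 counts at 48 h, and 4, 1 and 0 counts at 72 h. It fell by 3.04 ± 0.63 at 48 h (adjusted p = 0.00662) and by 4.22 ± 0.70 at 72 h (adjusted p = 0.00185), with -3.87 at 48 h without 48 h replicate 2 and -5.71 at 72 h without 72 h replicate 1. It too reached the filter's 0.591 CPM in the 3 controls and in 0 treated libraries, so it entered the test through the group in which it was high. With the counts of both added together, a choice made after seeing the data, the log2 fold change was -2.21 at 48 h (adjusted p = 0.00136) and -2.39 at 72 h (adjusted p = 0.000704). The setting for strand is not given in the sources used here. Antisense genes share 12.2%, 20.3% and 6.23% of the exon bases of KLK5, KLK6 and KLK10, and held 10 counts or fewer over all libraries. These low counts do not settle the setting, since reads from shared bases could also be dropped from both genes.

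KLK6, a trypsin-like protease abundant in the central nervous system and able to cleave myelin proteins, had 37, 38 and 20 counts in control replicates 1, 2 and 3, or 2.23, 2.04 and 1.43 CPM. It had 3, 6 and 3 counts at 48 h, or 0.150, 0.368 and 0.245 CPM. At 72 h it had 8, 4 and 3 counts, or 0.451, 0.228 and 0.185 CPM. Controls stood clear of all treated libraries, whose values overlapped between the times and rest on few counts. KLK6 fell 7.45-fold at 48 h (log2 fold change -2.90 ± 0.44, adjusted p = 0.00208) and 6.44-fold at 72 h (log2 fold change -2.69 ± 0.43, adjusted p = 0.00157). Within passages 12, 13 and 8 the log2 ratio was -3.90, -2.47 and -2.55 at 48 h and -2.31, -3.16 and -2.95 at 72 h.

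KLK10, first described as a gene lost in breast cancer cells and known as NES1, had 102.6, 66.2 and 69.4 CPM in control replicates 1, 2 and 3. It had 51.2, 47.1 and 20.1 CPM at 48 h and 28.5, 27.7 and 21.4 CPM at 72 h. No treated library reached a control, and 48 h replicate 3 was lower than all 3 libraries at 72 h, so the times overlapped. KLK10 fell by 1.00 ± 0.33 at 48 h (adjusted p = 0.0437), 2.01-fold, and by 1.62 ± 0.33 at 72 h (adjusted p = 0.00549), 3.07-fold. Within passages 12, 13 and 8 the log2 ratio was -1, -0.49 and -1.79 at 48 h and -1.85, -1.25 and -1.69 at 72 h. The 48 h call was close to the threshold: it was lost without control replicate 1, 2 or 3 (adjusted p = 0.144, 0.0698 and 0.0724), without 48 h replicate 1 or 2 (0.0504 and 0.0608) and without 72 h replicate 1 or 2 (0.0573 and 0.0661). It was also lost with upper-quartile scaling (0.0506) and with only controls and 48 h libraries in the model (0.0693).

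KLK11, a trypsin-like protease first isolated from the hippocampus, was the exception. It had 3.68, 0.591 and 1.36 CPM in control replicates 1, 2 and 3, 1.40, 1.84 and 0.978 CPM at 48 h, and 1.13, 0.570 and 1.36 CPM at 72 h. Control replicate 1 was the highest of the 9 libraries and control replicate 2 among the lowest, and the 3 groups overlapped. The log2 fold change was -0.40 ± 0.60 at 48 h (adjusted p = 0.641) and -0.88 ± 0.61 at 72 h (adjusted p = 0.272). Without control replicate 1 it was 0.55 at 48 h and 0.080 at 72 h, so its direction rests on that library. Within passage 13 the 48 h library was above its control, at a log2 ratio of 1.64, whereas passages 12 and 8 had -1.40 and -0.48; at 72 h passages 12, 13 and 8 had -1.71, -0.05 and 0. KLK11 rests on 10 to 61 counts a library, and its SE of 0.60 and 0.61 compares with 0.16 and 0.17 for KLK5, so missing the threshold does not show that it was unaffected.

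**Figure D2:**
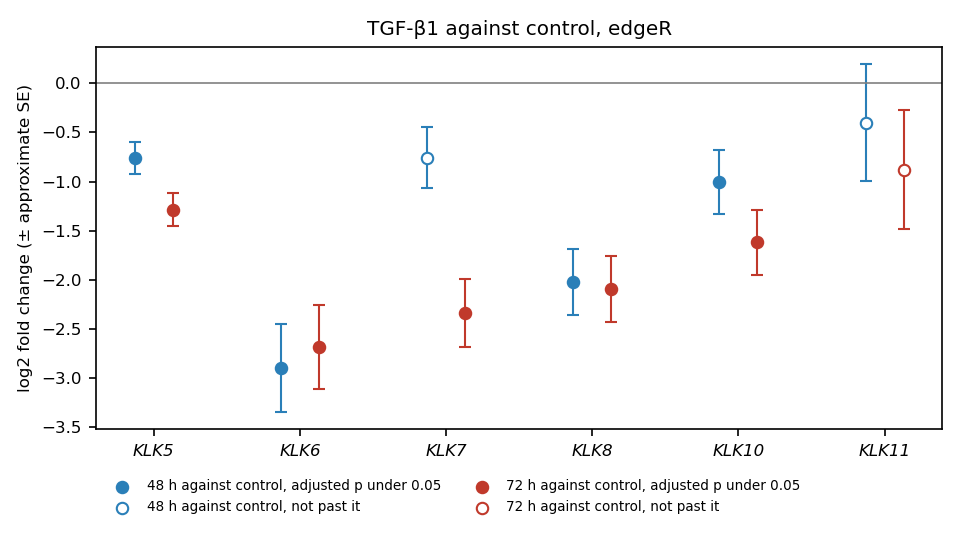
Log2 fold change against control (y axis, bars are the approximate SE) of the 6 kallikrein genes (x axis) at 48 h and 72 h of TGF-β1, with filled points for an adjusted p under 0.05 and open points for values that missed it. KLK6 lies lowest at both times, though at 72 h its bar overlaps those of KLK7 and KLK8. KLK7 passes the threshold at 72 h alone, and KLK11 passes it at neither time.

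Between the times, 0 of the 6 members and 0% of the 15440 genes passed the test at 72 h against 48 h. At an unadjusted p under 0.05 there were 1382 such genes (8.95%), and DESeq2 called 41. KLK5 and KLK7 were the members whose 72 h libraries all lay below their 48 h libraries, which 5.17% of tested genes did. The log2 difference was -0.53 ± 0.16 for KLK5 (adjusted p = 0.477) and -1.58 ± 0.36 for KLK7 (adjusted p = 0.466). KLK10 had -0.61 ± 0.33 (adjusted p = 0.59), KLK11 -0.48 ± 0.62 (adjusted p = 0.821), KLK8 -0.07 ± 0.35 (adjusted p = 0.962) and KLK6 0.21 ± 0.53 (adjusted p = 0.915). For KLK6, KLK8 and KLK11 the difference between the times was smaller than its error. For KLK5, KLK7 and KLK10 it was negative and larger than its error, without passing the test.

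The proportions among the members also varied by library. Per length, the log2 ratio of KLK10 to KLK5 was -3.80, -3.87 and -3.97 in control replicates 1, 2 and 3, -3.76, -3.97 and -4.95 at 48 h, and -4.01, -4.21 and -4.41 at 72 h. All 72 h libraries lay below all controls, narrowly for 72 h replicate 1 at -4.01 against control replicate 3 at -3.97. The lowest of all was 48 h replicate 3. A difference in this ratio between groups was not tested. Over the 9 libraries, whose values carry the group differences, log2 CPM of KLK5, KLK6, KLK7, KLK8 and KLK10 correlated with each other at Pearson's r of 0.675 to 0.917. KLK11 correlated with these 5 at 0.253 to 0.490.

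Without 72 h replicate 3, the library that stood apart, the same 5 members were lower at 72 h, with log2 fold changes of -1.25 for KLK5, -2.46 for KLK6, -2.52 for KLK7, -2.13 for KLK8 and -1.49 for KLK10. Leaving out all 3 libraries of a passage, a choice made after seeing the data, moved the 48 h count most, for the members and for all genes. Without passage 12, which is replicate 1, 4.89% of all genes tested passed at 48 h, against 31.0% with all libraries. Of the members KLK6 then passed as lower (log2 fold change -2.46, adjusted p = 0.0497). KLK8 had -1.86 (adjusted p = 0.0529), KLK10 -1.01 (0.161) and KLK5 -0.59 (0.129). At 72 h the same omission gave 5 lower members, with 19.9% of all genes passing.

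The genes whose log2 CPM followed each member most closely over the 9 libraries were taken from protein-coding genes with at least 5 CPM on average. For KLK5 they were NEDD4 (Pearson's r of 0.995), a ubiquitin ligase, LEO1 (0.980) and FSD1L (0.973). For KLK6 they were DRG2 (0.993), FIGNL1 (0.992) and CCNH (0.991), and for KLK8 TAF15 (0.983), GLOD4 (0.979) and AKAP1 (0.978). MARS2 (0.968), VSIR (0.965) and IRX3 (0.959) were closest to KLK10, and ZNF138 (0.968), ABCG2 (0.946) and CNTNAP2 (0.940) to KLK7. KLK11 was nearest to the keratin gene KRT6B (0.867), MT-ND5 (0.852) and ANXA8L1 (0.852). An r over 0.9 was reached by 1011 genes for KLK6, 281 for KLK8, 204 for KLK5, 92 for KLK10, 19 for KLK7 and 0 for KLK11. All points share the same 9 libraries and the difference between treated and control cells.

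Neighbouring genes on chromosome 19 did not share 1 direction. Of 11 other tested genes within 500 kb of the kallikrein cluster, 1 was higher and 4 were lower at 48 h, beside 14.9% and 16.0% of all genes tested. At 72 h 2 were higher and 4 lower, beside 20.4% and 19.4%. AC011473.4 is among the 11 as lower at both times. It shares 747 exon bases with KLK8 and 787 of the 840 of KLK9, so it is not a neighbour apart from the kallikrein genes. C19orf48, 14.2 kb from KLK1 at the edge of the cluster, fell by 2.34 ± 0.44 at 48 h (adjusted p = 0.00581) and by 2.09 ± 0.43 at 72 h (adjusted p = 0.00635). ACP4, 23.9 kb away on that side, had -0.90 and -0.93 without passing the test (adjusted p = 0.246 and 0.206), and CTU1, 13.4 kb beyond KLK14 on the other side, had -0.51 and -0.21 (adjusted p = 0.142 and 0.514). Farther out, POLD1, which encodes the catalytic subunit of DNA polymerase delta, fell by 1.15 ± 0.23 at 48 h (adjusted p = 0.00596) and by 1.29 ± 0.23 at 72 h (adjusted p = 0.00266). NR1H2, the gene of the liver X receptor beta, rose by 0.59 ± 0.11 (adjusted p = 0.00517) and 0.91 ± 0.11 (adjusted p = 0.000618) and was the higher neighbour at 48 h. EMC10, VSIG10L and ZNF175 passed at neither time, ETFB was lower by 0.69 and 0.73, and JOSD2 was higher at 72 h by 0.83 (adjusted p = 0.061 without control replicate 1, which left 1 higher gene). The ETFB call was lost without control replicate 2 or 3 at both times, without control replicate 1 or 48 h replicate 1 or 3 at 48 h, and without 72 h replicate 3 at 72 h (adjusted p = 0.052 to 0.124), and 2 genes were higher at 48 h without that last library.

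**Figure D3:**
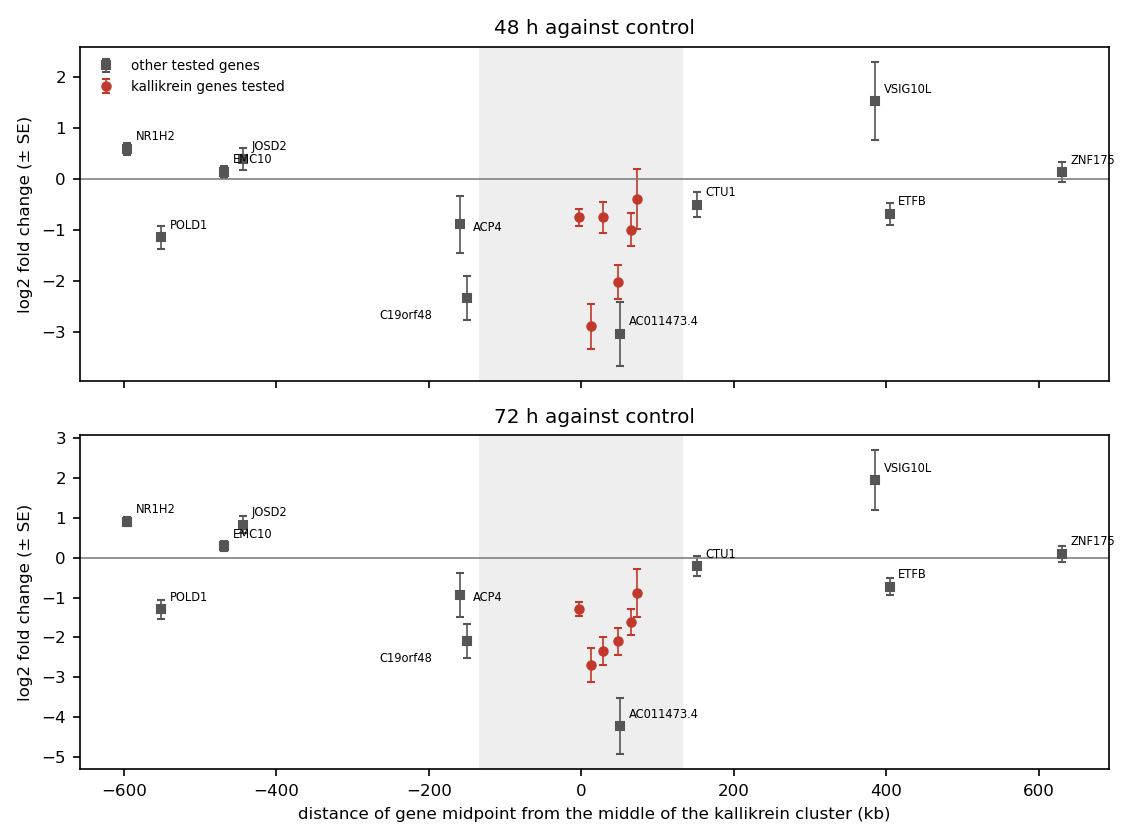
Log2 fold change against control (y axis, bars are the approximate SE) at 48 h (upper panel) and 72 h (lower panel) by distance of a gene's midpoint from the middle of the kallikrein cluster in kb (x axis), with the cluster shaded. The tested kallikrein genes (circles) all lie below 0, and the other tested genes within 500 kb (squares) lie on both sides of it, with C19orf48 near the cluster at -2.34 and -2.09.

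Inhibitors of kallikreins passed the test mainly at 72 h, where those that passed were higher apart from SPINK5. Of 17 listed, 9 were tested. At 48 h 1 was higher and 0 lower, beside 14.9% and 16.0% of all genes tested. At 72 h 4 were higher and 1 lower, beside 20.4% and 19.4%. The median log2 fold change was 0.07 and 0.87. SERPINF2, which encodes the plasmin inhibitor alpha-2-antiplasmin, rose by 1.87 ± 0.38 at 48 h (adjusted p = 0.00622) and by 2.35 ± 0.37 at 72 h (adjusted p = 0.00152). SPINT2, a membrane-bound inhibitor of serine proteases, averaged 709 ± 224 CPM at 72 h and 317 ± 25.6 CPM in controls (log2 fold change 1.16 ± 0.21, adjusted p = 0.00276), and its relative SPINT1 rose at that time by 0.64 ± 0.13 (adjusted p = 0.005). SPINK5 itself was rare, at 0.576 ± 0.247 CPM at 72 h and 1.62 ± 0.928 CPM in controls, a log2 fold change of -1.48 ± 0.49 (adjusted p = 0.0368). Without control replicate 1 or 2, 48 h replicate 1, or 72 h replicate 1 or 3 that call was lost (adjusted p = 0.0553 to 0.174), leaving 0 lower at 72 h. At 48 h, 3 inhibitors were higher and 1 lower without 72 h replicate 3, and 2 were higher with the replicate number as a block. Over all settings tried, the count of higher inhibitors at 72 h ran from 3 to 5. It was 3 without any 1 control.

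Other proteases of the epidermal activation cascade were tested for 9 of 12 listed genes. At 48 h 4 were higher and 0 lower, beside 14.9% and 16.0% of all genes tested. At 72 h 4 were higher and 1 lower, beside 20.4% and 19.4%. The median log2 fold change was 0.84 and 0.78. PRSS8, which encodes the channel-activating protease prostasin, had 3.24 ± 0.793 CPM in controls, 8.05 ± 0.750 CPM at 48 h and 14.4 ± 3.35 CPM at 72 h, and rose by 1.32 ± 0.24 (adjusted p = 0.0041) and 2.15 ± 0.24 (adjusted p = 0.000454). PLAU, the urokinase plasminogen activator gene, rose by 1.44 ± 0.28 at 48 h (adjusted p = 0.00525) and 1.46 ± 0.28 at 72 h (adjusted p = 0.00355), and CTSV, which encodes cathepsin V, by 0.84 ± 0.18 (adjusted p = 0.00748) and 0.85 ± 0.18 (adjusted p = 0.00525). ST14, the gene of matriptase, which activates prostasin, had -0.24 ± 0.17 at 48 h (adjusted p = 0.314) and 0.03 ± 0.17 at 72 h (adjusted p = 0.896). The lower gene at 72 h was TMPRSS11E, at -1.69. Its call was lost without control replicate 1 or 2, 48 h replicate 1, or 72 h replicate 2 or 3 (adjusted p = 0.0526 to 0.137). With the replicate number as a block, 1 was lower at 48 h. Over all settings tried, the count of higher genes ran from 3 to 5 at 48 h and from 3 to 4 at 72 h. It was 3 at both times without control replicate 1 or 2.

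Substrates and receptors of kallikreins were mixed. Of 22 listed, 19 were tested. At 48 h 7 were higher and 2 lower, beside 14.9% and 16.0% of all genes tested. At 72 h 5 were higher and 3 lower, beside 20.4% and 19.4%. The median log2 fold change was 0.71 and 0.42. IL1B, the cytokine gene whose proform several proteases can cut, had 87.0 ± 4.03 CPM in controls, 7.85 ± 2.66 CPM at 48 h and 7.44 ± 7.25 CPM at 72 h, and fell at both times, with log2 fold changes of -3.46 ± 0.69 (adjusted p = 0.00799) and -3.54 ± 0.70 (adjusted p = 0.00537), the second being -4.63 without 72 h replicate 2. APP, the amyloid precursor gene, rose by 1.58 ± 0.28 (adjusted p = 0.00346) and 2.01 ± 0.28 (adjusted p = 0.000918). F2RL1, the gene of the receptor PAR2, which KLK5 can activate, had 56.0 ± 4.80 CPM in controls, 105 ± 22.6 CPM at 48 h and 114 ± 24.5 CPM at 72 h (log2 fold changes 0.90 ± 0.20 and 1.02 ± 0.20, adjusted p = 0.00821 and 0.00351). L1CAM, an adhesion molecule, rose by 1.91 at 48 h (adjusted p = 0.0157, and 0.0645 or 0.0607 without control replicate 1 or 2) and by 2.57 at 72 h (adjusted p = 0.00333), with 2.58 and 3.24 without control replicate 3. Among the genes of desmosomal cadherins, DSG3 rose by 1.24 at 48 h (adjusted p = 0.0307, and 0.0628 to 0.113 without control replicate 2 or 3 or 48 h replicate 1 or 3). At 72 h DSG3 rose by 1.22 (adjusted p = 0.0263, and 0.0664 to 0.0975 without control replicate 2 or 3 or 72 h replicate 3). DSC3 and DSC2 rose at 48 h by 0.93 and 0.71 (adjusted p = 0.0323 and 0.049) and had 0.28 and 0.27 at 72 h (adjusted p = 0.441 and 0.383). With adjusted p of 0.0504 to 0.173, both 48 h calls were lost without control replicate 2 or 3 or 48 h replicate 1 or 3, and that of DSC2 also when 48 h replicate 2 or 72 h replicate 1 was omitted. DSG1, DSG2 and DSC1 passed at neither time. CDH1, the E-cadherin gene, passed at neither time (0.44 and 0.32, adjusted p = 0.0802 and 0.165). At 48 h the higher count was 2 without control replicate 2 and 4 without 48 h replicate 1 or 3, and the lower count 1 without control replicate 2 or 3 or 48 h replicate 1. At 72 h there were 3 higher without control replicate 2, 5 lower without 72 h replicate 3, and 8 higher and 5 lower with the replicate number as a block.

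Genes of late squamous differentiation, the setting in which KLK5, KLK7 and KLK8 are best known, were tested for 18 of 30 listed. At 48 h 0 were higher and 1 lower, and at 72 h 1 was higher and 1 lower, beside 31.0% and 39.8% of all genes passing in either direction, with a median log2 fold change of 0.46 and 0.42. IVL, the involucrin gene, had -0.97 and -0.12 (adjusted p = 0.543 and 0.939), KRT10 0.09 and 0.34 (adjusted p = 0.726 and 0.165), and FLG, the filaggrin gene, 0.54 and 0.42 (adjusted p = 0.106 and 0.177). The lower gene was S100A9, a calcium-binding alarmin, with 3.95 ± 4.65 CPM in controls, 0.310 ± 0.128 CPM at 48 h and 0.735 ± 0.114 CPM at 72 h. Its log2 fold change was -3.59 at 48 h (adjusted p = 0.0162, and 0.055 or 0.0546 without 48 h replicate 1 or 3) and -2.42 at 72 h (adjusted p = 0.0387, and 0.0513 to 0.218 without control replicate 1 or any 1 of the 6 treated libraries). The size of the fall rests on control replicate 1, without which it was -1.99 at 48 h and -0.82 at 72 h. The higher gene at 72 h was EVPL, at 0.42, whose call was lost on omitting any 1 library but 72 h replicate 2 (adjusted p = 0.0516 to 0.174). At 48 h, 2 genes were higher without 72 h replicate 3 and 1 without control replicate 1, 48 h replicate 2 or 72 h replicate 2, and with the replicate number as a block 4 were higher at each time.

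Of 12 nuclear receptors known to regulate kallikreins in other tissues, 8 were tested. At 48 h 2 were higher and 1 lower, beside 14.9% and 16.0% of all genes tested. At 72 h 3 were higher and 1 lower, beside 20.4% and 19.4%. The median log2 fold change was 0.09 and 0.28. NR3C1, the glucocorticoid receptor gene, had 314 ± 35.9 CPM in controls, 194 ± 11.5 CPM at 48 h and 187 ± 19 CPM at 72 h, and fell by 0.69 ± 0.14 (adjusted p = 0.00568) and 0.75 ± 0.14 (adjusted p = 0.00288). VDR, the vitamin D receptor gene, rose by 0.85 ± 0.14 (adjusted p = 0.00288) and 0.61 ± 0.14 (adjusted p = 0.0083). RXRA, its heterodimer partner, rose by 0.64 at 48 h (adjusted p = 0.019, and 0.0555 to 0.0733 without any 1 control or 48 h replicate 1, which left 1 higher receptor) and by 0.69 at 72 h (adjusted p = 0.0107).

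**Figure D4:**
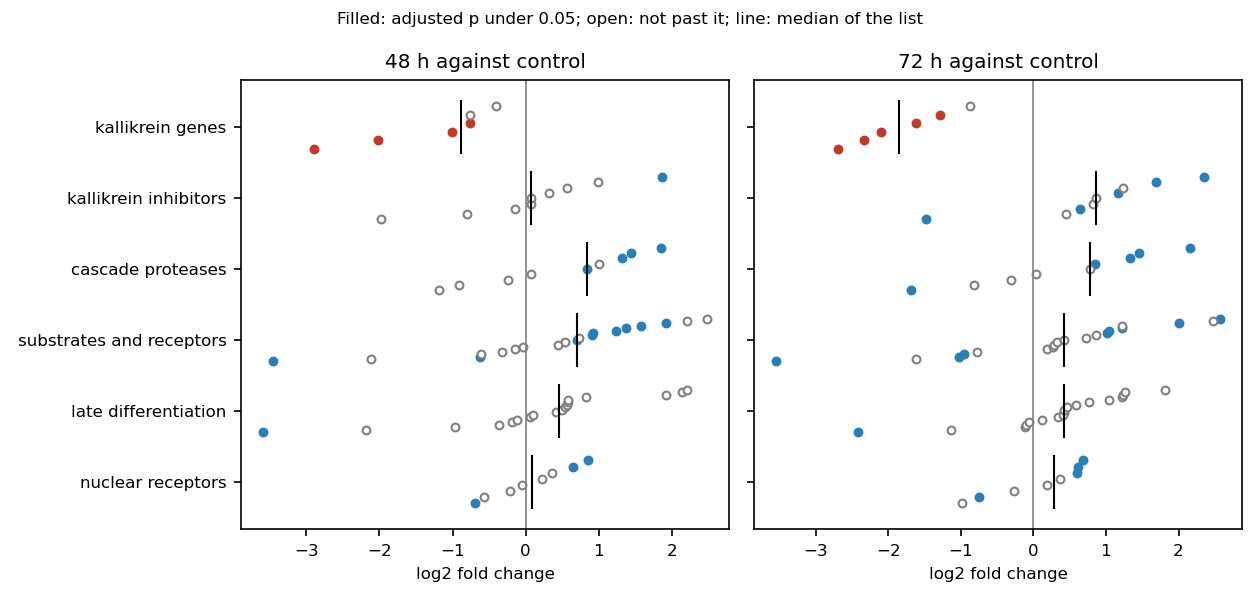
Log2 fold change against control (x axis) at 48 h (left) and 72 h (right) of the tested genes in each list (rows), 1 point per gene, filled for an adjusted p under 0.05 and open otherwise, with a vertical line at the median of the list. The kallikrein genes have medians of -0.88 and -1.86, and the other lists have medians between 0.07 and 0.87.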

How the data were processed

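Total RNA of 9 libraries was measured by RNA-seq. Per the labels and the values, the deposited files hold a count of reads per gene, not normalized, on genome build hg38. The submitters' processing notes name STAR 2.5.2a as well as featureCounts 1.5.0-p1, beside FastQC 0.11.5 and bcl2fastq 2.17.1.14. Which annotation release and strand setting were used, and how multiply aligned reads were treated, is not given in the sources used here. Symbols, exon lengths and coordinates came from GENCODE v29, which held 57895 of 58233 identifiers.

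The counts were fitted with edgeR 4.0.16 in R 4.3.3 with group as the only term, which left 6 residual degrees of freedom over the 9 libraries. TMM scaling, filterByExpr (minimum count 10, which left 15440 genes), quasi-likelihood F tests with robust dispersion, and a threshold of 0.05 after Benjamini-Hochberg adjustment over all genes were used. Standard errors are approximate: the absolute log2 fold change divided by the square root of F. CPM and FPKM use TMM-scaled library sizes, and FPKM the union of exons. Depth limits KLK6, KLK7 and KLK11, with 3 to 61 counts a library.

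The members, lists and tests were chosen with earlier results of these data known. List genes named were those past the threshold in both comparisons with control, at most 4 by size of change, plus genes needed for a role, and the 4 tested neighbours nearest to the cluster on each side. Some genes are not reported here. F2RL1, SPINT1, SPINT2, SPINK5, ST14, TMPRSS11E, CDH1, IVL, KRT10, FLG and EVPL were named for a role, and some were added after their values were seen, as were DSC2, DSC3, DSG1, DSG2 and DSC1. For each member, the 3 protein-coding genes with at least 5 CPM and the highest correlation were named. No library was a copy of another (between replicates, chi-square divided by its degrees of freedom was 8.99 to 159). The replicate number was read as a pairing because the labels give same-numbered libraries the same passage. It was used for the ratios within passages, for leaving out a passage and for the replicate block. The main model has no term for it, so its p-values are not paired by passage. Deviations from group means of same-numbered libraries correlated at 0.11, 0.08 and 0.12 between controls and 48 h, at 0.04, 0.11 and 0.1 between controls and 72 h, and at -0.03, 0.49 and 0.49 between the times, for replicates 1, 2 and 3. Other settings tried were upper-quartile or DESeq2 size factors in edgeR, DESeq2 1.42.0 itself, no filter or 1 CPM in 3 libraries, the replicate block, the 2 groups compared alone, and each library left out. The test was run on simulated data before use, with 67, 67 and 66 of the 15440 genes changed 1.5-fold, 2-fold and 4-fold in each comparison. It recovered 1.49%, 29.9% and 72.7% of them at 48 h against control and 2.99%, 31.3% and 74.2% at 72 h. For 72 h against 48 h it recovered 0%, 25.4% and 72.7%. Genes left unchanged but called numbered 12 at 48 h against control, 4 at 72 h against control and 3 for 72 h against 48 h. In the data 31.0% and 39.8% of genes passed at 48 h and 72 h against control, far more than were changed in the simulation. The adjustment depends on that share, so the recovered percentages do not carry over to those comparisons. A small change that missed the threshold is in any case not shown to be absent.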

Additional observations from a re-analysis of the deposited data

How the results depend on the processing

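Of the 12 differences of members from controls, 9 passed the threshold, and all but that of KLK10 at 48 h did so under all 16 other settings listed under the processing. The KLK10 call at 48 h was lost in 9 of the 16, with adjusted p up to 0.144. The count of lower members was 3 to 4 at 48 h and 5 at 72 h when single libraries were left out, with 0 higher. Without all libraries of replicate 1, 2 or 3, it was 1, 3 and 4 at 48 h, where 4.89%, 8.85% and 29.6% of all genes passed, and 5, 4 and 5 at 72 h, where 19.9%, 16.8% and 31.6% did (31.0% and 39.8% with all libraries). With the replicate number as a block, the counts were 4 and 5, KLK10 at 48 h had an adjusted p of 0.00862, and no call of a member changed. Directions that turned were those of values past no threshold. When single libraries were left out, KLK11 ran from -0.84 to 0.55 at 48 h and from -1.32 to 0.080 at 72 h, turning positive without control replicate 1. For 72 h against 48 h, KLK6 ran from -0.26 to 0.60, turning negative without replicate 1 of either time, and KLK8 from -0.29 to 0.097, turning positive without 48 h replicate 1 or 2. ST14 at 72 h ran from -0.17 to 0.19, turning negative without control replicate 3 or 72 h replicate 3. The cause of these changes was not tested, beyond the fewer samples fitted.

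Over all genes, the higher and lower counts at 48 h, 2301 and 2478, were 1393 and 1467 without control replicate 1, 1287 and 1344 without control replicate 2, 1450 and 1541 without control replicate 3. They were 1491 and 1346 when 48 h replicate 1 was omitted, 409 and 356 without all libraries of replicate 1, and 892 and 483 without those of replicate 2. At 72 h, 3151 genes were higher, and 2039 without control replicate 2; without all libraries of replicate 1 or 2, 1554 and 1551 were higher and 1556 and 1051 lower, against 3001. For 72 h against 48 h the counts of 0 became 26 higher and 15 lower with DESeq2 and 139 and 72 with no filter on low counts. Of the 3 genes closest to each member by Pearson's r, Spearman's rho kept 1 among its own top 3 for KLK7, KLK10 and KLK11, 2 for KLK5 and KLK6, and 0 for KLK8.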
